A study of Mus musculus with 9 samples.

Results

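Genes of DNA replication and of the G1/S transition were examined in the mouse ovary. The members were chosen by gene symbol and are 37 of the 54838 genes in the deposited table. Expression was measured by RNA sequencing of total RNA from ovaries of adult mice, collected 40 h after pregnant mare serum gonadotropin (PMSG), a hormone preparation with follicle-stimulating activity. The 9 libraries make 3 genotypes of 3 libraries each. DKO_TG is labelled as a knockout of both liver X receptors (DKO LXR) that also carries TG-AMH-LXRb, and DKO is labelled as the same knockout without it. WT is labelled wild type. Every mouse was adult and PMSG-treated, so no unstimulated ovary serves as a baseline. The name TG-AMH-LXRb is the only description of the transgene used here, so neither its promoter nor the cells that express it are described beyond that name. The labels give neither strain nor the number of animals behind a library. Since no label ties a library to its own animal, each p-value measures only variation among these libraries, part of which may be technical.

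The receptor transcripts were set beside the labels. Nr1h3, which encodes LXRa, averaged 0.670 ± 0.145 RPKM in DKO_TG, 0.807 ± 0.273 RPKM in DKO and 4.68 ± 0.701 RPKM in WT (SD, n = 3 each). Nr1h2, which encodes LXRb, averaged 5.67 ± 0.458 RPKM in DKO_TG, 6.53 ± 1.09 RPKM in DKO and 18.8 ± 3.65 RPKM in WT (SD, n = 3 each). Both were lowered but detected in the knockout libraries. Nr1h2 was no higher in DKO_TG than in DKO, so these levels do not show expression of the transgene. The names DKO_TG and DKO therefore rest on the labels alone. RPKM is reads per kilobase of exon, scaled to the library. RPKM and exon length together gave back 40.1 to 59.4 M reads per library. The library size behind the RPKM was 1.03 to 1.11 times that total in the 6 knockout libraries and 0.793 to 0.920 times it in the 3 WT libraries. Granulosa and oocyte markers were detected in every library, with summed levels given near the end.

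Cells copy their DNA once per cycle in S phase. In G1, ORC, Cdc6 and Cdt1 load the MCM helicase, built from Mcm2 to Mcm7, onto replication origins, and Cdc45 and the GINS complex then activate it. Polymerases, the sliding clamp PCNA and its RFC loader, Okazaki fragment enzymes and nucleotide synthesis carry out the copying. Cyclins D and E and the E2F factors set the timing, and E2F factors bind the promoters of many of these genes. In the ovary, follicle-stimulating hormone drives granulosa cells of growing follicles to divide, and cyclin D2 is required for that division in the mouse.

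Promoter sequence from RefSeq on GRCm38.p6, running from 250 bases before to 50 bases after the gene start, was found for 29 of the 37 genes as 33 promoters. Each was searched on both strands for the E2F-type letters TTTCCCGC, TTTCGCGC, TTTGGCGC and TTTGCCGC, which can overlap one another. A match was present in 11 of 33 member promoters (33.3%), against 744 of all 32851 promoters (2.27%). The letters CCAAT, searched on both strands, were in 17 of 33 member promoters (51.5%) and in 37.4% of all promoters. TTTGAA, the core letters of the cell cycle homology region, were in 4 of 33 member promoters (12.1%) and in 17.9% of all promoters. A match describes letters and does not show that a factor binds. The sequences of Mcm6 and Mcm5 are shown because these helicase genes had the most negative log2 changes among the members tested in DKO against WT. They cover positions -250 to -1 from the gene start, and capitals mark the E2F-type and CCAAT letters. Mcm6 is at chr1:128359706-128359955 on the minus strand, and Mcm5 is at chr8:75109259-75109508 on the plus strand.
Mcm6: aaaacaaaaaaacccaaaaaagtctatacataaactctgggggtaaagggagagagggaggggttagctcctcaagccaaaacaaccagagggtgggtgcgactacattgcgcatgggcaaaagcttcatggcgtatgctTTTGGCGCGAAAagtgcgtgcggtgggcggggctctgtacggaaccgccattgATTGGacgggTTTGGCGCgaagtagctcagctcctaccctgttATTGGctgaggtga
Mcm5: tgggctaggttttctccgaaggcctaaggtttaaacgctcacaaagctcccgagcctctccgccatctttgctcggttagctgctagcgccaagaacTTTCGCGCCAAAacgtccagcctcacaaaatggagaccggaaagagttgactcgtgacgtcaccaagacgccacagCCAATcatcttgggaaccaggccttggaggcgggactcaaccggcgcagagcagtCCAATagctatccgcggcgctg
In both promoters a pair of E2F-type matches on opposite strands overlap, and the Mcm6 promoter holds another match 47 bases before the start.

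Shorter windows of 28 bases show how the same letters sit in other members, with capitals marking only the E2F-type matches. The Mcm3 window is chr1:20820267-20820294 (minus strand) and the Mcm7 window is chr5:138172031-138172058 (minus strand). The Lig1 window is chr7:13278842-13278869 (plus strand) and the Cdt1 window is chr8:122568037-122568064 (plus strand). The last windows belong to genes not called lower in DKO than in WT, namely Rfc3 at chr5:151651196-151651223 (minus strand) and Gins3 at chr8:95633508-95633535 (plus strand).
Mcm3: gGCGGGAAAacttgggaagtTTTGGCGC
Mcm7: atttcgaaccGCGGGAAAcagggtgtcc
Lig1: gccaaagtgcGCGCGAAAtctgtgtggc
Cdt1: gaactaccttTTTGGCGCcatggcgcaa
Rfc3: cacgcTTTCGCGCtcGCGGGAAAactct
Gins3: cgagtgcggcGCGGGAAAgcgagtttga
The other 3 genes with a match were Cdc6, Pola1 and Pold1. Of the 11 genes with E2F-type letters, 8 were called lower in DKO than in WT by the test described next. So were 7 of the 18 genes whose promoters held none, among which Fen1 was not tested. Of all genes tested, 25.9% were called lower. That split is a description of the matched genes and was not tested.

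Many replication genes among the members were lower in the double knockout with the deposited scaling, and the G1/S control genes were not called. The members were chosen with earlier results of these data known. Of 38 further replication genes, 6 were called lower and 8 higher in DKO against WT. In DKO against WT, 18 of the 36 members tested were called lower and 0 were called higher. These counts depended on how libraries were scaled: TPM rescaling gave 2 lower and 2 higher with a member median of 0.12, and scaling by the plain total of reads gave 6 lower and 2 higher. Of all 18889 genes tested, TPM called 1065 lower and 10027 higher, with a median of 0.48. The plain total called 2314 lower and 8241 higher. Calls were made with limma on log2(RPKM + 0.5) at a Benjamini-Hochberg adjusted p under 0.05 over all 18889 genes tested. With the deposited scaling 25.9% of these genes were called lower and 30.8% higher. The log2 changes of members ran from -1.46 for Mcm6 to 0.23 for Gins3 and were negative for 32 of 36. Their median was -0.36, beside 0.02 over all genes tested. The 3 DKO libraries lay wholly below the 3 WT libraries in 18 of the tested members, as did 28.6% of all genes. The most negative log2 changes were those of the helicase genes Mcm6, Mcm5 and Mcm3, the ligase gene Lig1, Chaf1b of chromatin assembly and Tyms of dTMP synthesis, and E2f1, Ccne1, Ccne2 and Ccnd2 overlapped with WT. Fen1 did not pass the filter of 0.5 RPKM in at least 3 libraries. In a whole ovary, fewer cells in S phase and less of each transcript per cell cannot be told apart.

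In DKO_TG against WT, 13 of 36 members were called lower and 1 was called higher, against 22.3% and 29.1% of all genes tested. The median log2 change was -0.32 for members and 0.03 for all genes. TPM rescaling gave 1 lower and 4 higher with a member median of 0.12, and plain total scaling gave 4 lower and 1 higher. Of all 18889 genes tested, TPM called 994 lower and 9739 higher, and the plain total called 2238 lower and 7485 higher. All 13 members called lower with the deposited scaling were also called lower in DKO against WT, and these comparisons share the WT libraries. The 5 members called lower in DKO against WT and not in DKO_TG against WT were Cdc6, Chaf1a, Mcm4, Pola1 and Prim2. In each of these 5 the DKO_TG libraries also lay wholly below the WT libraries, as they did in 23 of the tested members and in 30.2% of all genes. Without DKO replicate 3, which enters this comparison only through the shared spread, 22 members were called lower, beside 4257 of all 18889 genes. In fits of only the 6 libraries compared, 14 members were called lower in DKO against WT and 22 in DKO_TG against WT. Of all 18889 genes, these fits called 3784 and 4813 lower. The order of the member counts is the reverse of the one in the main fit, so these counts do not rank the genotypes.

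**Figure D1:**
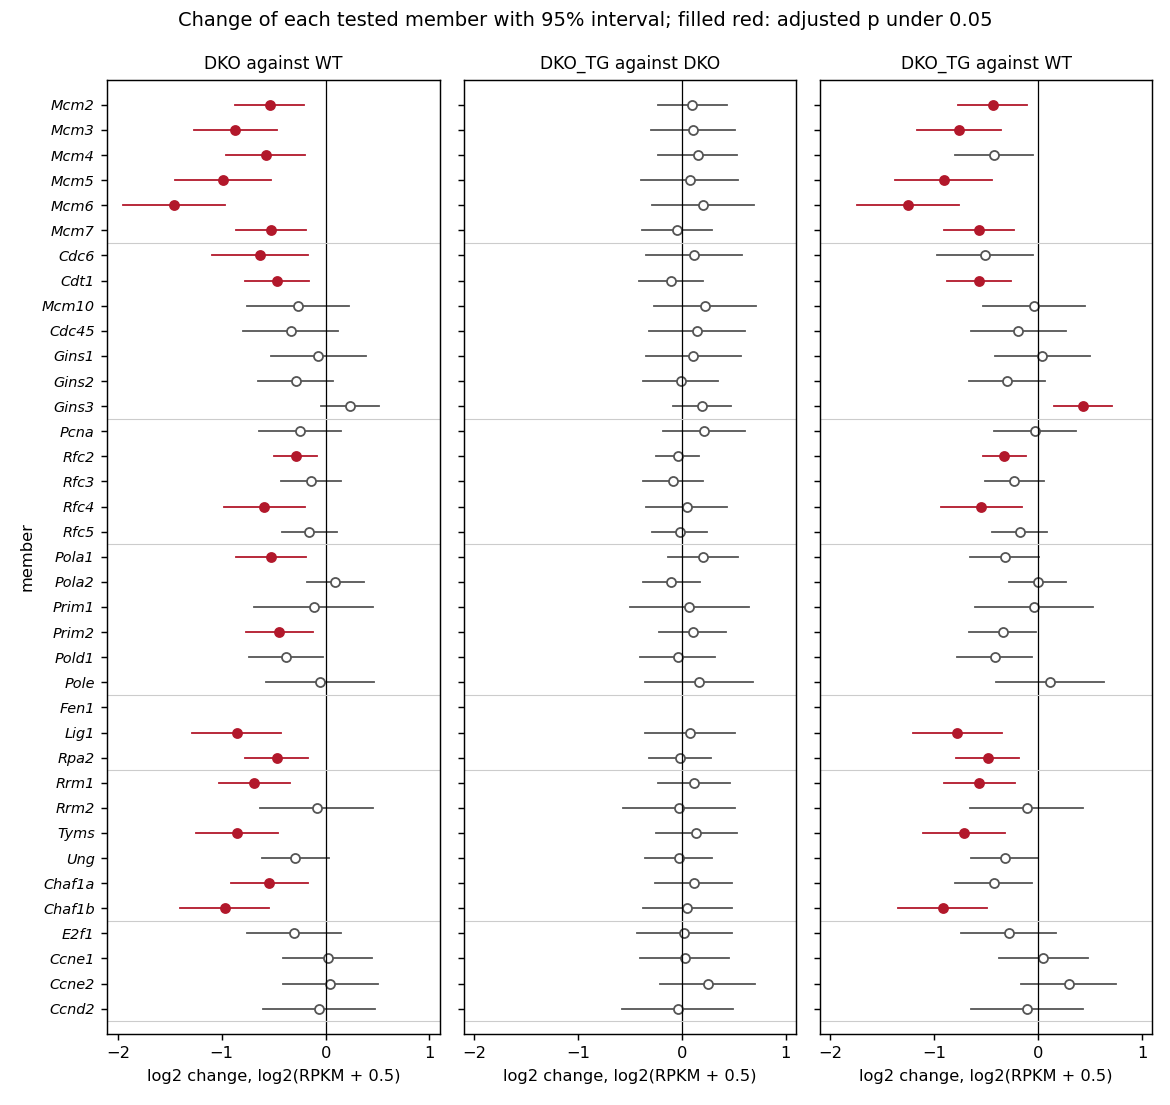
Log2 change of each tested member on the log2(RPKM + 0.5) scale with its 95% interval, in 3 panels for DKO against WT, DKO_TG against DKO and DKO_TG against WT. Filled red points are members with an adjusted p under 0.05: 18 in the first panel, 0 in the second and 14 in the third, where Gins3 is the 1 member on the higher side.

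The MCM helicase unwinds DNA at the fork. All 6 of its subunits were called lower in DKO than in WT, beside 25.9% of all genes. Under TPM rescaling, which sets every library to the same summed RPKM, Mcm7 turned to a log2 change of 0.02. Mcm2 and Mcm4 came to -0.02 and -0.04 under TPM rescaling in the same comparison. Gene coordinates are on mm10 from GENCODE M21, and all members are protein-coding genes measured over their exons. Mcm6 (chr1:128331590-128359664, minus strand) was at 10.5, 9.34 and 10.3 RPKM in DKO_TG, 6.24, 7.98 and 12.8 RPKM in DKO, and 22.8, 23.2 and 27.9 RPKM in WT. Mcm5 (chr8:75109569-75128439, plus strand) was at 10.9, 9.22 and 10.2 RPKM in DKO_TG, 6.78, 9.26 and 13.7 RPKM in DKO, and 18.7, 19.4 and 20.2 RPKM in WT. Mcm3 (chr1:20802968-20820312, minus strand) was at 14.2, 12.7 and 14.4 RPKM in DKO_TG, 9.92, 11.9 and 17.4 RPKM in DKO, and 21.9, 23.9 and 25.3 RPKM in WT. In these 3 genes every DKO_TG and DKO library lay below every WT library, and DKO replicate 3 was the highest of the DKO libraries. The log2 change of Mcm6 was -1.46 (SE 0.22, adjusted p = 0.000667) in DKO against WT and -1.25 (SE 0.22, adjusted p = 0.00160) in DKO_TG against WT. For Mcm5 it was -0.99 (SE 0.21, adjusted p = 0.00366) in DKO against WT and -0.91 (SE 0.21, adjusted p = 0.00589) in DKO_TG against WT. For Mcm3 it was -0.87 (SE 0.18, adjusted p = 0.00337) in DKO against WT and -0.76 (SE 0.18, adjusted p = 0.00695) in DKO_TG against WT. Mcm6 kept its call in both comparisons under 20 of 20 alternative settings, TPM rescaling included.

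The other 3 helicase subunits had smaller changes, and under TPM rescaling Mcm2 and Mcm4 turned to log2 changes of 0.06 and 0.09 in DKO_TG against WT. Mcm2 (chr6:88883474-88898780, minus strand) was at 6.98, 5.74 and 6.62 RPKM in DKO_TG, 4.83, 5.79 and 7.57 RPKM in DKO, and 8.46, 9.20 and 8.99 RPKM in WT. Mcm4 (chr16:15623897-15637400, minus strand) was at 12.7, 11.7 and 11.7 RPKM in DKO_TG, 8.69, 10.1 and 14.2 RPKM in DKO, and 14.2, 16.7 and 18.3 RPKM in WT. Mcm7 (chr5:138164583-138172422, minus strand) was at 14.6, 13.5 and 14.96 RPKM in DKO_TG, 12.7, 13.2 and 19.3 RPKM in DKO, and 20.4, 20.9 and 23.2 RPKM in WT. Again no knockout library reached a WT library, but for Mcm4 DKO replicate 3 nearly reached WT replicate 1. The log2 change in DKO against WT was -0.54 (SE 0.15, adjusted p = 0.0130) for Mcm2, and -0.58 (SE 0.17, adjusted p = 0.0168) for Mcm4. It was -0.52 (SE 0.15, adjusted p = 0.0157) for Mcm7 in the same comparison. Leaving out WT replicate 3 or DKO replicate 1 ended the Mcm4 and Mcm7 calls in DKO against WT. The adjusted p in limma was then up to 0.0568 for Mcm4 and 0.05105 for Mcm7. Quantile normalization ended both calls too (adjusted p = 0.061 for Mcm4 and 0.128 for Mcm7 in limma). The log2 change in DKO_TG against WT was -0.44 (SE 0.15, adjusted p = 0.0332) for Mcm2, and -0.57 (SE 0.15, adjusted p = 0.0119) for Mcm7. Mcm4 missed the threshold there, where its log2 change was -0.43 (SE 0.17, adjusted p = 0.0595). The Mcm2 call in DKO_TG against WT was lost when any of 5 libraries was left out, with an adjusted p of up to 0.110. The exons of Mcm7 share 12.6% of their bases with Ap4m1, Cops6, Mir25 and Mir93, and no source used here states that counting used strand, so its value is uncertain to that extent.

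**Figure D2:**
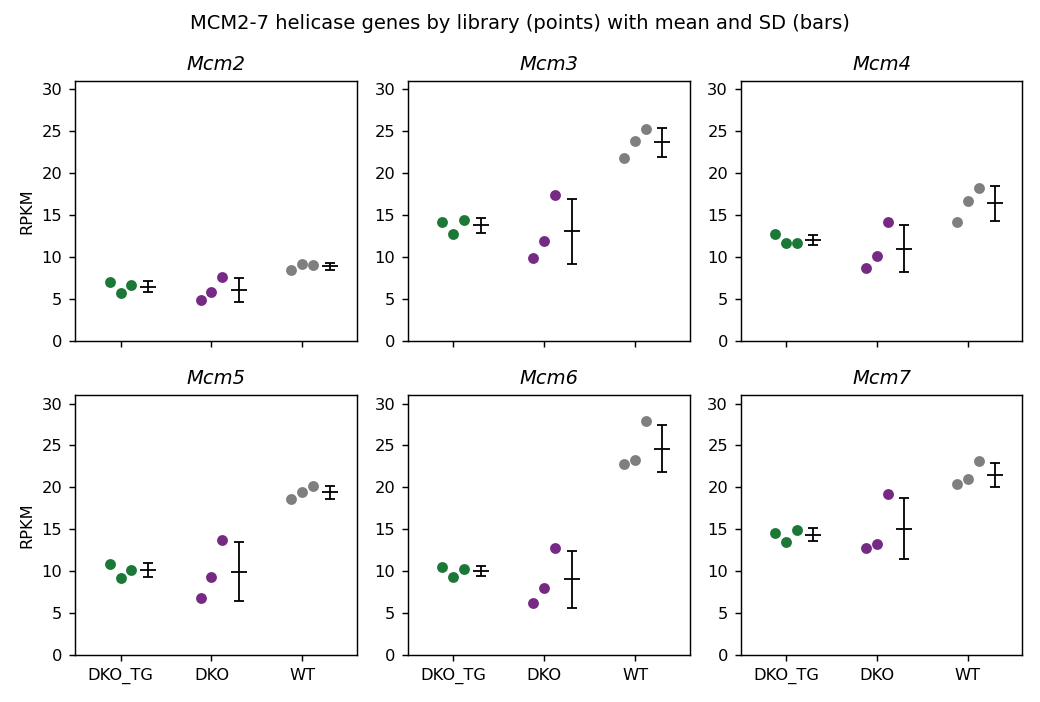
RPKM of the 6 MCM2-7 genes in each library, 1 point per library, with the mean and SD of the 3 libraries beside the points. In every panel all DKO_TG and DKO points lie below all WT points, by the narrowest margin for Mcm4, and the DKO points are more spread than the DKO_TG points.

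The make-up of the helicase transcripts also differed from WT. Mcm6 made up 15.03, 15.01 and 15.08% of the summed MCM2-7 RPKM in the DKO_TG libraries, 12.7, 13.7 and 15.1% in the DKO libraries, and 21.4, 20.5 and 22.5% in the WT libraries. No knockout library reached the WT range. Mcm7 made up 21.5 ± 0.566% in DKO_TG, 23.7 ± 1.83% in DKO and 18.8 ± 0.373% in WT (SD, n = 3 each). Mcm4 made up 18.0 ± 0.853% in DKO_TG, 17.2 ± 0.516% in DKO and 14.3 ± 0.831% in WT (SD, n = 3 each). Mcm3 kept a similar share, at 20.6 ± 0.430% in DKO_TG, 20.4 ± 0.179% in DKO and 20.7 ± 0.320% in WT (SD, n = 3 each). The summed MCM2-7 level was 66.7 ± 4.02 RPKM in DKO_TG, 64.1 ± 18.6 RPKM in DKO and 114.5 ± 8.80 RPKM in WT (SD, n = 3 each). Shares within a library do not depend on how libraries are scaled to each other. They were not tested.

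**Figure D3:**
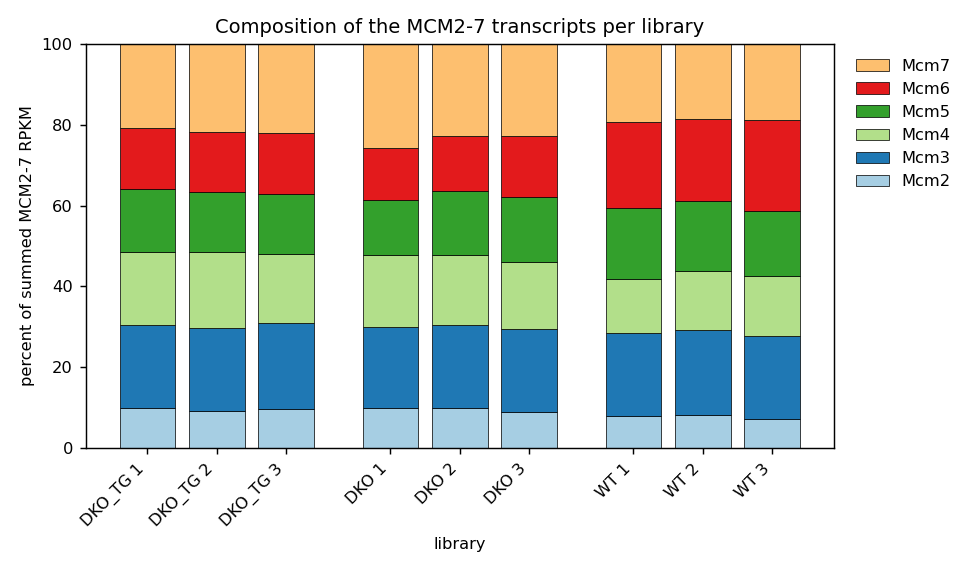
Share of each helicase gene in the summed MCM2-7 RPKM of a library, in percent, with libraries grouped by genotype. The Mcm6 segment is 12.7 to 15.1% of the bar in the 6 knockout libraries and 20.5 to 22.5% in the 3 WT libraries.

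Of the 7 genes that load or activate the helicase, 2 had a call in DKO against WT, both lower, beside 25.9% of all genes called lower. Cdt1 turned to a log2 change of 0.02 under TPM rescaling. Both load the helicase onto origins. Cdc6 (chr11:98907801-98923940, plus strand) was at 1.82, 1.60 and 1.66 RPKM in DKO_TG, 0.919, 1.71 and 2.12 RPKM in DKO, and 2.27, 2.87 and 2.76 RPKM in WT. Cdt1 (chr8:122568015-122573554, plus strand) was at 3.13, 3.06 and 3.31 RPKM in DKO_TG, 2.71, 3.495 and 4.27 RPKM in DKO, and 4.77, 5.29 and 4.80 RPKM in WT. For both genes all knockout libraries lay below all WT libraries. The log2 change in DKO against WT was -0.63 (SE 0.20, adjusted p = 0.0267) for Cdc6, and -0.47 (SE 0.13, adjusted p = 0.0165) for Cdt1. In DKO_TG against WT it was -0.57 (SE 0.13, adjusted p = 0.00727) for Cdt1, and for Cdc6, not called, it was -0.51 (SE 0.20, adjusted p = 0.0615). Gins3, a GINS subunit, was the only member called higher in any comparison with the deposited scaling. Gins3 (chr8:95633453-95645060, plus strand) was at 2.56, 2.55 and 2.94 RPKM in DKO_TG, 1.94, 2.30 and 2.64 RPKM in DKO, and 1.61, 1.88 and 2.12 RPKM in WT. Every DKO_TG library was above every WT library, as in 35.6% of all genes, while DKO and WT overlapped. The log2 change was 0.43 (SE 0.12, adjusted p = 0.0184) in DKO_TG against WT, and it was 0.23 (SE 0.12, adjusted p = 0.134) in DKO against WT, not called. TPM rescaling called Gins3 higher in DKO against WT, with a log2 change of 0.67 (adjusted p = 0.00659 in limma). Plain total scaling did so too, at 0.48 (adjusted p = 0.0191 in limma). Leaving out WT replicate 1 or DKO_TG replicate 3 removed the Gins3 call, with an adjusted p of up to 0.0722, and quantile normalization removed it too.

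The other loading and firing genes were not called against WT in either genotype with the deposited scaling. Gins2, another GINS subunit, averaged 2.07 ± 0.199 RPKM in DKO_TG, 2.13 ± 0.637 RPKM in DKO and 2.65 ± 0.0536 RPKM in WT (SD, n = 3 each). The Gins2 exons share 67.3% of their bases with the antisense gene Gse1, so its value is uncertain. Gins1 averaged 3.57 ± 0.575 RPKM in DKO_TG, 3.34 ± 1.05 RPKM in DKO and 3.47 ± 0.588 RPKM in WT (SD, n = 3 each), and its groups overlapped. Cdc45, which joins the MCM ring at the fork, averaged 3.49 ± 0.381 RPKM in DKO_TG, 3.22 ± 1.15 RPKM in DKO and 4.06 ± 0.431 RPKM in WT (SD, n = 3 each). Mcm10, which helps to activate the helicase, averaged 1.52 ± 0.213 RPKM in DKO_TG, 1.27 ± 0.576 RPKM in DKO and 1.58 ± 0.300 RPKM in WT (SD, n = 3 each). Gins3 over Gins2 was 1.301 ± 0.0336 in DKO_TG, 1.11 ± 0.160 in DKO and 0.706 ± 0.0961 in WT (SD, n = 3 each), a ratio of RPKM levels that was not tested.

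Of 5 clamp and clamp loader genes, 2 were called lower in DKO and in DKO_TG against WT, beside 25.9% and 22.3% of all genes. These were the loader subunits Rfc2 and Rfc4, and Pcna was not called. Rfc2 turned to a log2 change of 0.23 under TPM rescaling and 0.01 under plain total scaling in DKO against WT. Rfc4 (chr16:23113943-23127737, minus strand) was at 8.41, 7.42 and 8.89 RPKM in DKO_TG, 6.41, 7.76 and 10.1 RPKM in DKO, and 14.1, 10.1 and 12.8 RPKM in WT. Rfc2 (chr5:134581366-134601805, plus strand) was at 6.44, 5.99 and 6.70 RPKM in DKO_TG, 6.06, 6.59 and 7.06 RPKM in DKO, and 8.87, 7.71 and 7.80 RPKM in WT. The knockout libraries lay below the WT libraries for both genes, and for Rfc4 DKO replicate 3 nearly reached WT replicate 2. The log2 change in DKO against WT was -0.59 (SE 0.17, adjusted p = 0.0171) for Rfc4, and -0.29 (SE 0.09, adjusted p = 0.0253) for Rfc2. Against WT, DKO_TG had log2 changes of -0.55 (SE 0.17, adjusted p = 0.0259) for Rfc4, and -0.33 (SE 0.09, adjusted p = 0.0161) for Rfc2. Leaving out any 1 of 4 libraries ended the Rfc4 call in DKO_TG against WT, with an adjusted p of up to 0.0870, and any 1 of 2 libraries ended it in DKO against WT, with an adjusted p of up to 0.0601. Rfc2 shares 15.1% of its exon bases with Lat2 and Rfc4 shares 12.7% with Eif4a2, both antisense.

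Pcna, the sliding clamp, had the highest mean RPKM of the 37 genes in each genotype, at 37.2 ± 1.07 RPKM in DKO_TG, 32.7 ± 8.501 RPKM in DKO and 38.1 ± 2.63 RPKM in WT (SD, n = 3 each). Its groups overlapped, and the log2 change in DKO against WT was -0.25 (SE 0.17, adjusted p = 0.246). The copy Pcna-ps2 is listed at 49.8 ± 1.56 RPKM in DKO_TG, 45.2 ± 12.6 RPKM in DKO and 51.8 ± 4.08 RPKM in WT (SD, n = 3 each), so reads may be divided between near-identical copies and the Pcna level is uncertain. Pcna over Mcm6 was 3.71 ± 0.287 in DKO_TG, 3.75 ± 0.603 in DKO and 1.55 ± 0.0679 in WT (SD, n = 3 each). The loader subunits Rfc3 and Rfc5 were not called. Rfc3 averaged 4.18 ± 0.118 RPKM in DKO_TG, 4.53 ± 0.968 RPKM in DKO and 4.99 ± 0.0504 RPKM in WT (SD, n = 3 each), and Rfc5 averaged 4.46 ± 0.193 RPKM in DKO_TG, 4.58 ± 0.843 RPKM in DKO and 5.11 ± 0.256 RPKM in WT (SD, n = 3 each).

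Of 6 polymerase and primase genes, 2 were called lower in DKO against WT and 0 in DKO_TG against WT, beside 25.9% and 22.3% of all genes. Prim2 turned to a log2 change of 0.01 in DKO against WT under TPM rescaling. Pola1 (chrX:93304767-93632155, minus strand), the catalytic subunit of polymerase alpha, was at 3.34, 2.65 and 2.97 RPKM in DKO_TG, 2.16, 2.26 and 3.28 RPKM in DKO, and 3.52, 3.81 and 4.25 RPKM in WT. Prim2 (chr1:33453810-33669795, minus strand), the large primase subunit, was at 2.51, 2.07 and 2.13 RPKM in DKO_TG, 1.68, 1.90 and 2.63 RPKM in DKO, and 2.90, 2.76 and 3.22 RPKM in WT. All knockout libraries lay below all WT libraries for both. The log2 change in DKO against WT was -0.52 (SE 0.15, adjusted p = 0.0153) for Pola1, and -0.45 (SE 0.14, adjusted p = 0.0250) for Prim2. In DKO_TG against WT, where neither was called, it was -0.32 (SE 0.15, adjusted p = 0.0969) for Pola1, and -0.34 (SE 0.14, adjusted p = 0.0731) for Prim2. Prim2 was among the least stable calls and lost it when any of 4 libraries was left out, with an adjusted p of up to 0.0803.

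The other polymerase and primase genes were not called with the deposited scaling. Prim1, the catalytic primase subunit, averaged 4.002 ± 0.519 RPKM in DKO_TG, 4.01 ± 1.89 RPKM in DKO and 4.12 ± 0.304 RPKM in WT (SD, n = 3 each). Pola2, the accessory subunit of polymerase alpha, averaged 6.99 ± 0.239 RPKM in DKO_TG, 7.62 ± 1.53 RPKM in DKO and 7.02 ± 0.143 RPKM in WT (SD, n = 3 each). The groups of both genes overlapped. Pola2 was called higher in DKO against WT under TPM rescaling, with a log2 change of 0.61 (adjusted p = 0.0089 in limma). It was also called higher under plain total scaling, at 0.39 (adjusted p = 0.0386 in limma). Pola2 over Pola1 was 2.36 ± 0.227 in DKO_TG, 2.99 ± 0.115 in DKO and 1.83 ± 0.170 in WT (SD, n = 3 each), with no library of DKO_TG or DKO in the WT range. Pold1, the catalytic subunit of polymerase delta, averaged 4.65 ± 0.139 RPKM in DKO_TG, 4.91 ± 1.41 RPKM in DKO and 6.40 ± 0.394 RPKM in WT (SD, n = 3 each). Its log2 change was -0.38 (SE 0.16, adjusted p = 0.0668) in DKO against WT and -0.42 (SE 0.16, adjusted p = 0.0508) in DKO_TG against WT, neither called. Pole, the catalytic subunit of polymerase epsilon, averaged 1.59 ± 0.254 RPKM in DKO_TG, 1.44 ± 0.734 RPKM in DKO and 1.43 ± 0.153 RPKM in WT (SD, n = 3 each) and was not called.

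Both tested genes for Okazaki fragments and single-stranded DNA were called lower in each knockout genotype. Of all genes, 25.9% were called lower in DKO and 22.3% in DKO_TG. Under TPM rescaling Rpa2 turned to a log2 change of 0.05 in DKO and 0.01 in DKO_TG against WT. Lig1 (chr7:13277283-13311433, plus strand), the ligase that joins Okazaki fragments, was at 8.17, 7.04 and 8.08 RPKM in DKO_TG, 5.44, 6.87 and 10.4 RPKM in DKO, and 13.1, 13.8 and 14.0 RPKM in WT. Rpa2 (chr4:132768332-132778752, plus strand), a subunit of the single-stranded DNA binding complex RPA, was at 7.33, 7.56 and 7.94 RPKM in DKO_TG, 6.17, 7.86 and 9.41 RPKM in DKO, and 10.3, 11.2 and 11.1 RPKM in WT. The groups did not overlap with WT for either gene. For Lig1 the log2 change was -0.86 (SE 0.19, adjusted p = 0.00497) in DKO against WT and -0.78 (SE 0.19, adjusted p = 0.00858) in DKO_TG against WT. For Rpa2 it was -0.47 (SE 0.13, adjusted p = 0.0153) in DKO against WT and -0.49 (SE 0.13, adjusted p = 0.0143) in DKO_TG against WT. Fen1, the flap endonuclease, was at 0.229, 0.309 and 0.240 RPKM in DKO_TG, 0.0968, 0.141 and 0.202 RPKM in DKO, and 0.460, 0.323 and 0.419 RPKM in WT. Its values rest on 12 to 51 reads per library, and 84.2% of its exon bases are shared with the antisense genes Gm10143 and Tmem258, so the level is uncertain and was not tested. Its DKO_TG libraries lay above its DKO libraries and below its WT libraries.

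Of 6 genes for nucleotide supply, uracil repair and chromatin assembly, 4 were called lower in DKO against WT, beside 25.9% of all genes. Of these 4 genes, 3 were also called lower in DKO_TG against WT, beside 22.3% of all genes. Under TPM rescaling only Chaf1b of the 4 kept its call in DKO (adjusted p = 0.0478 in limma). None kept one in DKO_TG, where the adjusted p in limma was 0.0649 for Chaf1b, 0.250 for Tyms and 0.759 for Rrm1. Chaf1b (chr16:93883901-93906115, plus strand), a subunit of chromatin assembly factor 1, was at 2.22, 1.80 and 2.39 RPKM in DKO_TG, 1.43, 2.03 and 2.84 RPKM in DKO, and 4.79, 3.95 and 4.72 RPKM in WT. Tyms (chr5:30058202-30073617, minus strand), thymidylate synthase, was at 4.22, 3.78 and 4.42 RPKM in DKO_TG, 2.59, 4.31 and 4.51 RPKM in DKO, and 7.44, 6.56 and 7.27 RPKM in WT. Rrm1 (chr7:102441695-102469771, plus strand), the large subunit of ribonucleotide reductase, was at 6.84, 5.53 and 6.31 RPKM in DKO_TG, 4.69, 5.35 and 7.28 RPKM in DKO, and 9.02, 8.995 and 10.4 RPKM in WT. None of the 3 genes had a knockout library in the WT range. The log2 change of Chaf1b was -0.97 (SE 0.19, adjusted p = 0.00270) in DKO against WT and -0.92 (SE 0.19, adjusted p = 0.00381) in DKO_TG against WT. For Tyms it was -0.85 (SE 0.17, adjusted p = 0.00332) in DKO against WT and -0.71 (SE 0.17, adjusted p = 0.00853) in DKO_TG against WT. For Rrm1 it was -0.68 (SE 0.15, adjusted p = 0.00492) in DKO against WT and -0.57 (SE 0.15, adjusted p = 0.0128) in DKO_TG against WT. Tyms-ps, a copy of Tyms, is listed at 2.67 ± 0.835 RPKM in DKO_TG, 2.67 ± 0.926 RPKM in DKO and 4.86 ± 0.330 RPKM in WT (SD, n = 3 each), so the Tyms level is uncertain.

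Chaf1a (chr17:56040439-56072289, plus strand), the partner of Chaf1b, was at 1.65, 1.51 and 1.59 RPKM in DKO_TG, 1.13, 1.199 and 2.07 RPKM in DKO, and 2.22, 2.41 and 2.27 RPKM in WT. All knockout libraries lay below all WT libraries. The log2 change was -0.54 (SE 0.16, adjusted p = 0.0198) in DKO against WT, called, and -0.43 (SE 0.16, adjusted p = 0.0538) in DKO_TG against WT, not called. Its exons share 52.5% of their bases with the antisense gene Ubxn6, so the value is uncertain. Rrm2, the small subunit of ribonucleotide reductase, averaged 10.6 ± 1.02 RPKM in DKO_TG, 11.3 ± 4.10 RPKM in DKO and 11.5 ± 1.47 RPKM in WT (SD, n = 3 each) and was not called, and its log2 change in DKO against WT was -0.09 (SE 0.24, adjusted p = 0.774). Rrm2 over Rrm1 was 1.71 ± 0.0661 in DKO_TG, 1.92 ± 0.388 in DKO and 1.22 ± 0.0868 in WT (SD, n = 3 each). Ung, a uracil DNA glycosylase, averaged 1.21 ± 0.111 RPKM in DKO_TG, 1.27 ± 0.357 RPKM in DKO and 1.64 ± 0.0568 RPKM in WT (SD, n = 3 each) and was not called.

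None of the 4 G1/S control genes was called in any comparison with the deposited scaling. Under TPM rescaling Ccne2 was called higher in DKO_TG against WT, with a log2 change of 0.74 (adjusted p = 0.0241 in limma). E2f1, a transcription factor that activates S-phase genes, was at 3.73, 3.09 and 2.70 RPKM in DKO_TG, 2.30, 2.98 and 4.26 RPKM in DKO, and 3.23, 4.27 and 4.404 RPKM in WT. Ccnd2, cyclin D2, was at 16.8, 12.7 and 13.9 RPKM in DKO_TG, 11.2, 14.3 and 20.3 RPKM in DKO, and 11.6, 17.6 and 18.4 RPKM in WT. Ccne2, cyclin E2, was at 3.84, 3.82 and 3.67 RPKM in DKO_TG, 2.42, 2.86 and 4.25 RPKM in DKO, and 2.21, 3.22 and 3.69 RPKM in WT. In each of the 3 genes DKO replicate 3 lay within or above the WT range and the groups overlapped. The log2 change in DKO against WT was -0.30 (SE 0.20, adjusted p = 0.219) for E2f1. It was -0.07 (SE 0.24, adjusted p = 0.824) for Ccnd2, with a 95% interval from -0.61 to 0.47. For Ccne2 it was 0.05 (SE 0.20, adjusted p = 0.856), with a 95% interval from -0.41 to 0.51, and in DKO_TG against WT it was 0.30 (SE 0.20, adjusted p = 0.249). Ccne1, cyclin E1, averaged 1.59 ± 0.223 RPKM in DKO_TG, 1.59 ± 0.563 RPKM in DKO and 1.51 ± 0.180 RPKM in WT (SD, n = 3 each). Ccne2 shares 17.4% of its exon bases with the antisense gene Ints8.

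**Figure D4:**
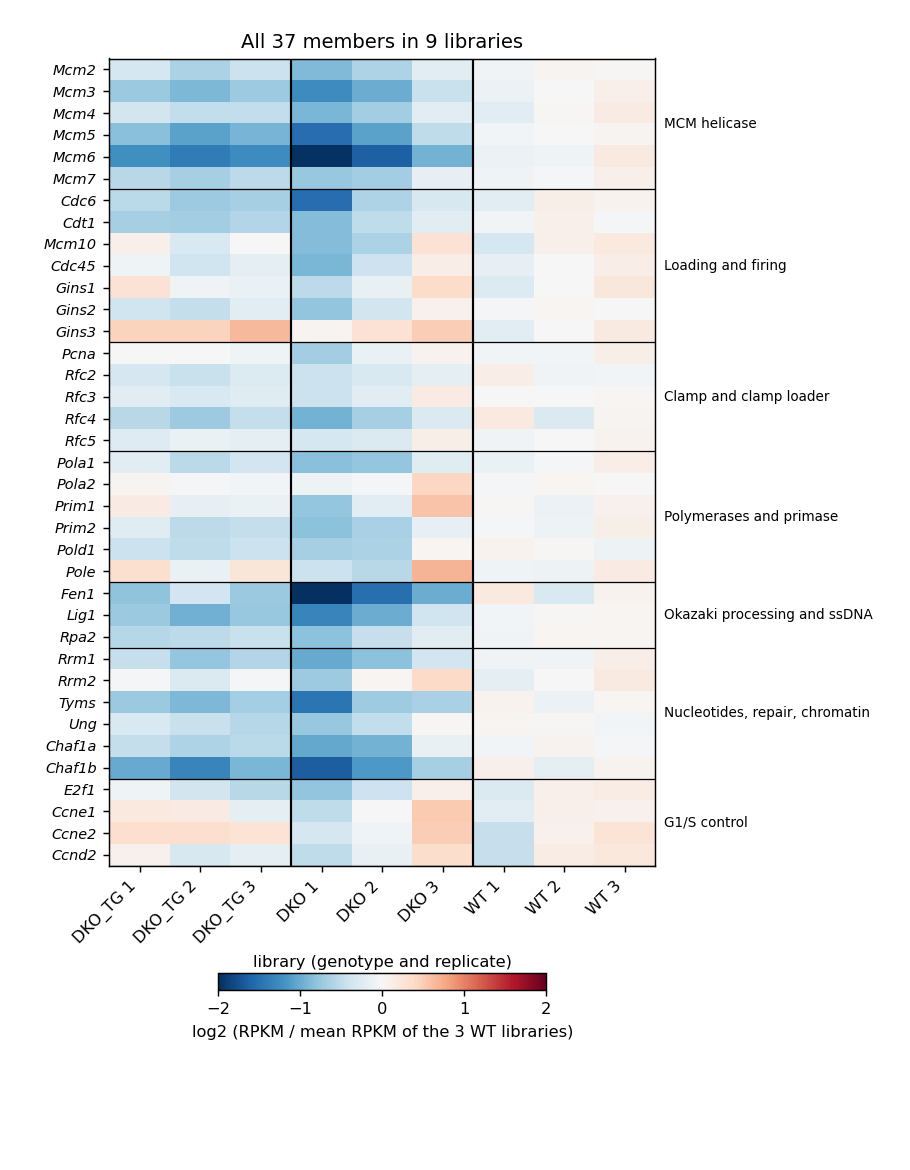
Log2 ratio of each member's RPKM to its mean over the 3 WT libraries, with libraries across and members down, grouped by role. The colour scale ends at -2 and 2. Blue is below the WT mean. DKO replicate 1 is the bluest of the DKO columns and DKO replicate 3 the palest, and the 4 G1/S control genes at the bottom are mixed.

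No member was called between the transgene-labelled and the plain knockout libraries. In DKO_TG against DKO, 0 of 36 members were called lower and 0 higher, against 1.73% and 0.498% of all genes tested. None of the tested members passed an unadjusted p under 0.05 in limma, and a voom fit on the recovered reads also gave 0 calls. Log2 differences ran from -0.10 for Cdt1 to 0.25 for Ccne2, with a median of 0.08 beside 0.03 over all genes. No tested member had DKO_TG libraries wholly above or below the DKO libraries, a state of 12.1% of all genes in each direction. For Mcm6 the log2 difference was 0.21 with a 95% interval from -0.29 to 0.70, and for Chaf1b it was 0.05 with an interval from -0.38 to 0.48. For Ccne2 the interval ran from -0.21 to 0.71. Intervals of this width do not show that levels were equal. The sign of the small median rested on single DKO libraries: without DKO replicate 3, 0 of 36 differences were negative, with a median of 0.26, and without DKO replicate 1, 30 of 36 were negative, with a median of -0.10.

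The DKO libraries differed among themselves in these genes more than the libraries of the other genotypes did. DKO replicate 1 was the lowest DKO library in 35 of 36 tested members, and DKO replicate 3 was the highest in 36 of 36. Over all tested genes these libraries were lowest in 34.8% and highest in 30.8%. DKO replicate 3 over DKO replicate 1 ran from 1.17 for Rfc2 to 2.52 for Prim1, with a median of 1.75 over members and 1.013 over all genes. The median coefficient of variation of members was 8.32% in DKO_TG, 29.2% in DKO and 7.98% in WT, where all tested genes had 7.59%, 15.2% and 13.9% in the same groups. Below the WT range were 24, 29 and 29 of the 37 members in DKO_TG replicates 1, 2 and 3. In DKO these numbers were 35, 30 and 19, and DKO replicate 3 had 13 members above the WT range. The counts include Fen1 and were not made over all genes, so they do not set the members apart. Of all genes tested, 30.2% had every DKO_TG library below every WT library. For DKO, 28.6% lay wholly below WT and 32.6% wholly above. Without DKO replicate 1 the number of members called lower in DKO against WT was 11, and without DKO replicate 3 it was 26. Of all 18889 genes tested, 4176 and 4252 were called lower in these fits.

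The summed mitosis genes followed the same order of the DKO libraries, and the luteal and endothelial sums the opposite order. The summed RPKM of the 37 members was 244, 219 and 234 in DKO_TG, 170, 215 and 291 in DKO, and 298, 312 and 338 in WT. The 20 mitosis genes summed to 217, 156 and 197 RPKM in DKO_TG, 121, 156 and 212 RPKM in DKO, and 159, 205 and 220 RPKM in WT. DKO replicate 1 was lowest and DKO replicate 3 highest of the DKO libraries in both sums. The sums of other lists also differed among these libraries. The 8 luteal markers summed to 2717, 2100.0 and 1236 RPKM and the 8 endothelial markers to 142, 135 and 80.5 RPKM in DKO replicates 1, 2 and 3, lowest in the third. Cyp11a1 weighs most in the luteal sum, as it averaged 1420 ± 385 RPKM in DKO (SD, n = 3). The granulosa sums were 1929, 1349 and 2817 RPKM, highest in DKO replicate 3. In DKO against WT 3 of the 20 mitosis genes were called lower, namely Plk1 (log2 change -0.70), Tpx2 (-0.68) and Ccna2 (-0.49), and 0 higher, though under TPM rescaling 0 were called lower and 2 higher, and Ccna2 turned to 0.04. With the deposited scaling, 25.9% of all genes were called lower in DKO against WT. Under TPM 1065 of all 18889 genes were called lower and 10027 higher. Without DKO replicate 3, 8 mitosis genes were called lower in DKO against WT, beside 4252 of all 18889 genes. Of the mitosis genes, 0 were called lower in DKO_TG against WT and Kif11 was called higher, with a log2 change of 0.79. Of all genes, 22.3% were called lower and 29.1% higher in DKO_TG against WT. The 12 granulosa markers summed to 1981 to 2413 RPKM in DKO_TG, 1349 to 2817 RPKM in DKO and 2031 to 2897 RPKM in WT. Only Foxl2 among them was called in DKO against WT, on the lower side with a log2 change of -0.51 that turned to 0.04 under TPM rescaling. In DKO_TG against WT 2 were called lower. Under TPM rescaling 1 granulosa marker was called higher in DKO and 2 in DKO_TG against WT. Of all 18889 genes, TPM called 10027 higher in DKO and 9739 in DKO_TG against WT. No mitosis gene or granulosa marker was at 0 in any library. The part of these genes and markers in the member values was not tested.

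Other markers also differed between the genotypes. Over all genes 30.8% were called higher and 25.9% lower in DKO against WT. In DKO_TG these shares were 29.1% and 22.3% against WT, and 1.73% were called lower against DKO. In DKO against WT 8 of 9 macrophage markers were called higher, and 7 of 9 were called lower in DKO_TG against DKO. They summed to 89.0 to 93.2 RPKM in DKO_TG, 181 to 360 RPKM in DKO and 122 to 158 RPKM in WT, and in DKO_TG against WT 1 was called higher and 3 lower. Of 8 luteal markers 4 were called lower in DKO than in WT and 0 in DKO_TG than in WT. Of 9 oocyte markers 5 were called higher in DKO and 6 in DKO_TG than in WT, with sums of 50.1 to 71.9 RPKM in DKO_TG, 32.4 to 79.0 RPKM in DKO and 16.5 to 35.4 RPKM in WT. Theca markers were called higher for 5 of 8 in DKO and 2 of 8 in DKO_TG than in WT. Their sums were 665 to 1013 RPKM in DKO_TG, 124.5 to 270 RPKM in DKO and 210 to 1002 RPKM in WT. The theca marker Cyp17a1, not called, averaged 752 ± 180 RPKM in DKO_TG, 118 ± 73.4 RPKM in DKO and 437 ± 450 RPKM in WT (SD, n = 3 each). Endothelial markers were called lower for 5 of 8 in DKO and 4 of 8 in DKO_TG than in WT. Under TPM rescaling the endothelial median turned to a log2 change of 0.02 in DKO against WT. The theca marker Insl3, called higher in DKO, shares 64.8% of its exon bases with Jak3 on the same strand, and the macrophage marker Itgam shares 68.7% with Gm49368, so both values are uncertain. Insl3 was at 0 in 2 WT libraries, and no other marker named by these lists was at 0. Nuclear RNAs separated WT from both knockout genotypes. Malat1 averaged 261 ± 16.4 RPKM in DKO_TG, 199 ± 19.1 RPKM in DKO and 7.38 ± 5.03 RPKM in WT (SD, n = 3 each). All 3 tested nuclear RNAs were called higher in DKO and in DKO_TG than in WT. Genotype and this difference in RNA make-up cannot be told apart for any member called against WT.

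The scaling of the libraries set how many members were called. With the deposited scaling, median-of-ratios and quantile normalization, 18, 19 and 20 members were called lower in DKO against WT, and 13, 20 and 21 in DKO_TG against WT. Scaling by the plain total of reads left 6 lower and 2 higher in DKO against WT, and 4 lower and 1 higher in DKO_TG against WT. The 6 were Mcm3, Mcm5, Mcm6, Lig1, Tyms and Chaf1b. TPM rescaling left Mcm6 and Chaf1b lower in DKO and Mcm6 in DKO_TG, and called 2 and 4 members higher. These last scalings moved the whole table: the median log2 change of all genes in DKO against WT was 0.28 with the plain total and 0.48 with TPM, and under TPM 10027 genes were called higher and 1065 lower, against 5821 and 4889 with the deposited scaling. Under the plain total 8241 genes were called higher and 2314 lower. In DKO_TG against WT the median of all genes was 0.25 with the plain total and 0.47 with TPM, and 9739 genes were called higher and 994 lower under TPM.

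**Figure D5:**
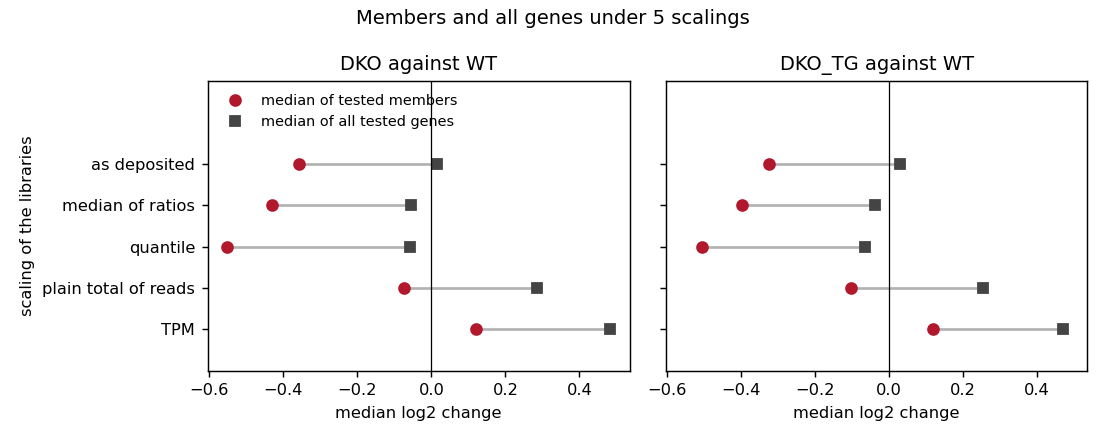
Median log2 change of the 36 tested members (circles) and of all tested genes (squares) under 5 scalings of the libraries, for DKO against WT and DKO_TG against WT. Circles and squares both move right under the plain total of reads and TPM, where the member median in DKO against WT is -0.07 and 0.12. Scaling a library by 1 factor shifts its genes nearly alike, so the distance between circle and square is no check of the member changes.

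Other genes of the same pathways were counted from lists that do not include the members. Of 38 further replication genes, DKO against WT gave 6 lower and 8 higher, and DKO_TG against WT gave 4 lower and 10 higher. Over all genes 25.9% were called lower and 30.8% higher in DKO, and 22.3% and 29.1% in DKO_TG, so the share of this list called was below the share of all genes on the lower side in both comparisons. The higher ones included Donson, a replication initiation factor, with a log2 change of 1.30 in DKO_TG and 1.16 in DKO against WT. Cdc7, the kinase that activates loaded MCM, had 1.97 in DKO_TG and 1.71 in DKO against WT. Orc4, a subunit of the origin recognition complex, had 0.91 in DKO_TG and 0.71 in DKO, and Dna2, a nuclease helicase, had 1.04 in DKO_TG and 0.90 in DKO. The lower ones included Pold2, a polymerase delta subunit, with -0.81 in DKO_TG and -0.88 in DKO. Gins4 had -0.65 in DKO_TG and -0.48 in DKO, Rpa1 had -0.54 in each, and Pole3 had -0.37 in DKO_TG and -0.49 in DKO. In DKO against WT, TPM rescaling brought Gins4 to 0.06, Pole3 to 0.05 and Rpa1 to 7.66e-05, and called 0 of the 38 genes lower and 21 higher. Of all 18889 genes tested, TPM called 1065 lower and 10027 higher in that comparison. Pole3 turned to 0.15 in DKO_TG against WT under TPM. Within the GINS complex, Gins4 was thus called lower and Gins3 higher in DKO_TG than in WT.

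Of 22 further genes for nucleotides and chromatin in S phase 5 were lower and 2 higher by the same rule in DKO against WT, and 4 were lower and 4 higher in DKO_TG against WT. Over all genes 25.9% were called lower and 30.8% higher in DKO, and 22.3% and 29.1% in DKO_TG. Dctpp1, a dCTP pyrophosphatase, had a log2 change of -0.81 in DKO_TG and -0.86 in DKO against WT. Slbp, which binds the stem-loop of histone mRNA, had 0.62 in DKO_TG and 0.48 in DKO. Rbbp4, a histone chaperone that is part of chromatin assembly factor 1, had -0.32 in DKO_TG and -0.40 in DKO, but under TPM rescaling it turned to 0.20 in DKO_TG and 0.14 in DKO. Without DKO replicate 3, 10 of the 22 genes were called lower in DKO against WT, beside 4252 of all 18889 genes tested. Under TPM 0 of the 22 were called lower and 8 higher in DKO against WT, beside 1065 lower and 10027 higher of all 18889 genes.

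Of 27 further G1/S regulators DKO against WT gave 13 higher and 3 lower, and DKO_TG against WT gave 14 higher and 4 lower. Over all genes 30.8% were called higher and 25.9% lower in DKO, and 29.1% and 22.3% in DKO_TG. Cdk2, the kinase partner of cyclin E, had a log2 change of 1.09 in DKO_TG and 1.16 in DKO against WT. E2f5, E2f4 and E2f6, which act mainly as repressors, had 1.02, 0.46 and 0.53 in DKO_TG, and 1.05, 0.63 and 0.64 in DKO. Cdkn1b, the CDK inhibitor p27, had 0.78 in DKO_TG and 1.28 in DKO. Ccnd1 and Ccnd3, D cyclins like the member Ccnd2, had -1.30 and -0.71 in DKO_TG, and -1.46 and -0.82 in DKO. Cdk4, the partner of D cyclins, had -0.43 in DKO_TG and -0.44 in DKO, but turned to 0.09 in DKO_TG and 0.11 in DKO under TPM rescaling and to 0.04 in DKO_TG and 0.12 in DKO under quantile normalization. Exons shared with other genes make up 12.5% of Donson, 18.0% of Rbbp4, 23.4% of Ccnd1 and 19.7% of Cdk4, so their values are uncertain. Without DKO replicate 3 the number of these regulators called higher in DKO against WT was 7, beside 5354 of all 18889 genes tested. None of the genes in these 3 lists was called in DKO_TG against DKO, where 2, 0 and 0 passed an unadjusted p under 0.05 in limma.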

How the data were processed

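Total RNA of 9 mouse ovary samples was sequenced, 3 for each of 3 genotypes, and groups and replicate numbers were read from the labels. The authors deposited RPKM values for 54838 genes in 1 table. Tools listed in the submitters' processing notes are HISAT2 2.1.0, cutadapt, DESeq2 1.2.8 and HTSeq 0.5.4p5, and the build is mm10. How RPKM was computed, with which annotation and whether counting was strand-specific is not given in the sources used here. Table columns of DKO_TG name the transgene with other letters than the titles do, and were assigned through their group and number.

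RPKM multiplied by the exon length in GENCODE M21 gave whole reads, within 0.01 read, for 97.6 to 97.9% of values above 0 per library. Members had at least 145 such reads in every library, except Fen1, and Pola2 did not come out whole. RPKM is not a count, so log2(RPKM + 0.5) was tested with limma 3.58.1 in R 4.3.3 (lmFit, eBayes with trend). All 9 libraries entered 1 fit over the 18889 genes with at least 0.5 RPKM in at least 3 libraries. Fold changes on this scale understate those of weakly expressed genes. A gene was called at a Benjamini-Hochberg adjusted p under 0.05. The test was checked on simulated data. The members, lists and naming rule were chosen with earlier results of these data known. All members were named by role, and of the other lists the genes with the smallest adjusted p. The 20 alternatives changed the pseudocount (0.1, 1), filter (none, 1 RPKM), scaling, fit or libraries. The plain total scaling was chosen after the data were seen.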

Additional observations from a re-analysis of the deposited data

How the results depend on the processing

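In DKO against WT, 18 members were called lower and 0 higher. The counts were 2 lower and 2 higher with TPM rescaling and 6 lower and 2 higher with plain total scaling, and leaving out 1 library gave 11 to 26 lower and 0 to 0 higher. A fit of only the 6 libraries compared gave 14 lower and 0 higher. In DKO_TG against WT, 13 were called lower and 1 higher. The counts were 1 lower and 4 higher with TPM, 20 lower with median-of-ratios, 21 lower and 0 higher with quantile normalization, 4 lower with plain total scaling and 22 lower in a fit of only the 6 libraries compared. Leaving out 1 library gave 10 lower (without DKO_TG replicate 2) to 22 lower (without DKO replicate 3), and 0 to 1 higher. In DKO_TG against DKO the count stayed at 0 in both directions under all 20 alternatives. Signs turned under TPM for Mcm7 (0.0159), Cdt1 (0.0234), Rfc2 (0.231), Prim2 (0.0107) and Rpa2 (0.0534) in DKO against WT and for Mcm2 (0.0592), Rfc2 (0.170) and Rpa2 (0.0148) in DKO_TG against WT, and under plain total scaling for Rfc2 (0.0106) in DKO against WT. TPM and plain total scaling shift all genes, as given above. The cause of the other changes was not tested. Pseudocounts of 0.1 and 1, the 1 RPKM filter, median-of-ratios rescaling and voom each kept all 32 member calls, and no filter kept 29.

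The labels do not say whether replicate numbers pair the samples, and the main fit did not pair them. Same-numbered deviations from the group means correlated at -0.31, -0.15 and 0.10 in DKO against WT, and unlike numbers at -0.26 to 0.30. Deviations from a mean of 3 libraries depend on each other, so these correlations cannot settle the pairing. With the replicate number as a block the counts were 18 and 13 lower, and 0 and 1 higher, in DKO and in DKO_TG against WT, and 0 in DKO_TG against DKO. Over all genes the block gave 21 higher and 78 lower in DKO_TG against DKO, beside 94 and 327 without it. With 3 libraries per genotype, the DKO spread limits what can be called for these genes.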
